A study of Mus musculus with 16 samples.

Results

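Diphtheria toxin (DT) was the agent of damage in this study, and the 10 genes described here encode the mouse counterpart of its receptor, its intracellular target and the enzymes that make the target sensitive. They were taken by gene symbol as Hbegf, Dph1, Dph2, Dph3, Dnajc24, Dph5, Dph6, Dph7, Eef2 and Eef2k, with earlier results of these data known. All 10 were found among the 47729 genes with values, and all 10 passed the filter on low values, as did 16994 genes in all. RNA was sequenced from 16 libraries of P4 mouse cochleae. Control mice were GLAST CreERT/+; Rpl22 HA/+ and DTR mice were Lgr5 DTR/+; GLAST CreERT/+; Rpl22 HA/+, so that both groups carried the tamoxifen-activated Cre and the HA-tagged ribosomal protein (RiboTag), and only DTR mice carried the human DT receptor and EGFP knocked in at Lgr5. By the methods, DT and tamoxifen were given to both genotypes at P1, but the labels list controls as not treated and the others as DTR treated. Each of 8 pools of cochleae, 4 per genotype, gave 1 input library from 5% of the homogenate and 1 library from the ribosomes immunoprecipitated with an anti-HA antibody (IP) from the other 95%.

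The model has limits that bear on these genes. The Cre is driven at the GLAST (Slc1a3) locus and tags ribosomes in whichever cells recombined, the lateral wall, spiral ganglia and the membrane of Reissner had been dissected away, and mice of both sexes were used in the study. Slc1a3, the marker of the labelled GLAST-Cre+ cells, was present in every library, at 281 ± 14.3 CPM (reads on a gene per 1000000 reads on all genes, SD, n = 4) in control input and 236 ± 21.9 in control IP, and was not higher in the IP (log2 fold change -0.20, SE 0.09, limma adjusted p = 0.10). In DTR it was lower in IP than in input, at 215 ± 18.4 against 271 ± 19.8 CPM (log2 fold change -0.27, SE 0.09, limma adjusted p = 0.030). Lgr5 fell from 36.6 ± 3.99 CPM in control IP to 9.38 ± 1.40 in DTR IP. Between 28089836 and 41966310 reads fell on genes in each library, and 3 reads were worth 0.0715 to 0.107 CPM. These are bulk tissue pools, in which fewer cells of a type and less RNA per cell cannot be told apart.

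DT enters a cell by binding the membrane-anchored precursor of heparin-binding EGF-like growth factor (HB-EGF). The human protein binds the toxin well and the mouse protein poorly, which is why a human receptor is used to kill chosen mouse cells. Once in the cytosol, the toxin's catalytic fragment attaches ADP-ribose to diphthamide, a modified histidine found on elongation factor 2 (eEF2), and protein synthesis stops. Diphthamide is built on eEF2 by successive enzymes. Dph1, Dph2, Dph3 and Dnajc24 act in the first step, Dph5 methylates the intermediate, Dph7 removes a methyl group and Dph6 completes the amide. Cells that lack this pathway resist the toxin. Independently of the toxin, Eef2k phosphorylates eEF2 and slows elongation.

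Eef2 was by far the most abundant of these transcripts. The receptor counterpart had the lowest mean in control input, though its libraries overlapped those of Dph5 when divided by exon length. Divided by exon length, Eef2 reached 195 ± 20.5 CPM per kb in control input and 188 ± 10.1 in DTR input, and 147 ± 9.77 and 163 ± 14.6 in the corresponding IP (SD, n = 4). In control input this was 13.2 times the level per kb of the highest diphthamide gene, Dph3, and 81.8 times that of the lowest, Dph5. In DTR IP the corresponding ratios were 8.41 times, against Dph7, and 49.0 times, against Dph5.

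The 7 diphthamide genes were spread over a narrow range, the highest standing between 5.83 and 6.79 times above the lowest in the 4 groups. In control input the order of levels per kb was Dph3 (14.8 ± 0.866), Dph7 (12.6 ± 1.85), Dnajc24 (11.8 ± 1.08), Dph6 (7.15 ± 0.304), Dph1 (4.99 ± 0.479), Dph2 (3.42 ± 0.642) and Dph5 (2.38 ± 0.401). The libraries of Dph3 and Dph7 overlapped, as did those of Dph7 and Dnajc24 and those of Dph2 and Dph5, so that these neighbours cannot be ordered. Eef2k lay between Dph6 and Dph1 at 5.68 ± 0.383 CPM per kb and overlapped Dph1. Hbegf had the lowest mean in control input at 1.96 ± 0.150, where its libraries overlapped those of Dph5. It was eighth in control IP at 4.23 ± 0.400, overlapping Dph6, Dph1, Eef2k and Dph2, and ninth in DTR input at 3.12 ± 0.409, overlapping Dph2. In DTR IP it was the fifth at 5.64 ± 1.29, where its libraries overlapped those of every gene below it, down to Dph5. It cannot be ordered against those genes. Levels per kb assume that the annotated exons are all used.

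**Figure D1:**
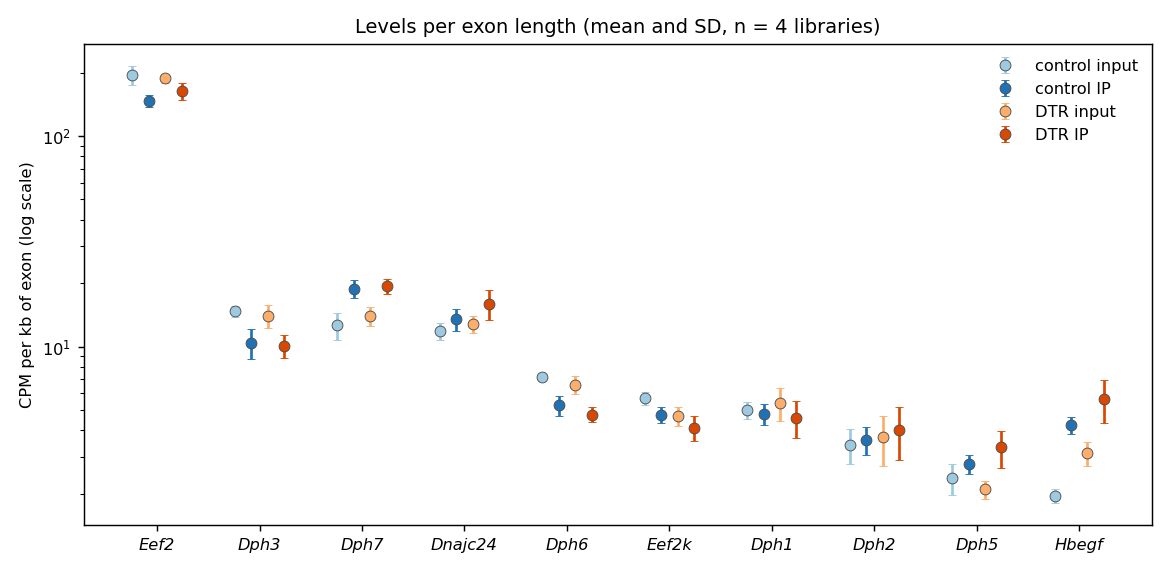
Mean level of each gene in CPM per kb of exon, on a log axis, for the inputs and the IPs of both genotypes, with bars of 1 SD over 4 libraries and genes in the order of control input. Eef2 stands 13.2 times above the next gene in control input. Hbegf moves from the lowest mean in control input (1.96, its libraries overlapping those of Dph5) to 5.64 in DTR IP. There its libraries overlap those of every gene with a lower mean.

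Hbegf lies at GRCm38 chr18:36504927-36515805 on the minus strand, in 5 exon blocks. Its transcript was measured at 8.51, 9.995, 10.1 and 9.29 CPM in control input replicates 1 to 4 and at 21.3, 19.1, 22.8 and 18.7 CPM in control IP. In DTR input it was measured at 13.4, 13.5, 17.6 and 15.7 CPM, and in DTR IP at 20.4, 27.2, 35.5 and 25.8 CPM. The lowest control IP library was above the highest control input library, and every DTR input library was likewise above every control input library. DTR IP overlapped control IP, since its replicate 1 was lower than 2 of the 4 control IP libraries.

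The largest difference among the 10 genes was the higher level of Hbegf in IP than in input. In control pools the change was 2.12-fold (95% CI 1.66 to 2.70, LFC 1.08, SE 0.17, limma adjusted p = 4.6e-05), where LFC is the log2 fold change of quantile normalized CPM plus a pseudocount of 0.5. In DTR pools it was 1.73-fold (95% CI 1.36 to 2.21, LFC 0.79, SE 0.17, limma adjusted p = 0.00099). The IP level was above the input level of the same pool in 8 of 8 pools, by 1.91 to 2.50 times in controls and 1.52 to 2.02 times in DTR. The 2 changes did not differ beyond their error (difference in LFC -0.29, SE 0.24, 95% CI -0.79 to 0.20, limma adjusted p = 0.999).

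After damage, Hbegf rose in the input. DTR input exceeded control input 1.55-fold (95% CI 1.21 to 1.97, LFC 0.63, SE 0.17, limma adjusted p = 0.016). The call rested on single libraries. Without control input replicate 1 the LFC was 0.58 (adjusted p = 0.052), and without DTR input replicate 3 it was 0.53 (adjusted p = 0.063). In IP, Hbegf was 1.26-fold higher in DTR than in control (95% CI 0.99 to 1.61, LFC 0.34, SE 0.17, adjusted p = 0.20), which did not pass the test. That value depended on DTR IP replicate 3, the library with the fewest genes detected (23975, against 24038 to 25853 in the others), without which the LFC was 0.19 (adjusted p = 0.48). With the replicate number as a block and the trend of each library with gene length removed, the LFC was 0.36 and passed (adjusted p = 0.048).

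Several measured facts stand beside these values. DTR mice carry a human HB-EGF coding sequence at Lgr5 that controls lack, and whether reads from it were counted at mouse Hbegf was not tested. Hbegf was also higher in IP than in input in control mice, a comparison that does not bear on the rise in DTR input. Genotype and damage cannot be told apart, since every damaged pool was Lgr5 DTR/+ and no undamaged pool was. Summed macrophage markers (6 of 6 detected, none at 0) ranged from 86.5 to 92.0 CPM in control input and from 119 to 193 in DTR input. Summed endothelial markers ranged from 213 to 251 and from 290 to 349 CPM. In DTR input 4 of 6 macrophage and 1 of 4 endothelial markers were called higher, against 7.17% of all tested genes. The part of these cells in the higher Hbegf of DTR input was not tested. In IP against input, all 6 macrophage and all 4 endothelial markers were called lower in both genotypes. Of all tested genes, 20.7% were called lower in controls and 20.5% in DTR. Macrophage markers summed to 14.2 to 21.9 CPM in control IP. The part of these cells in the Hbegf values of the IP was not tested.

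**Figure D2:**
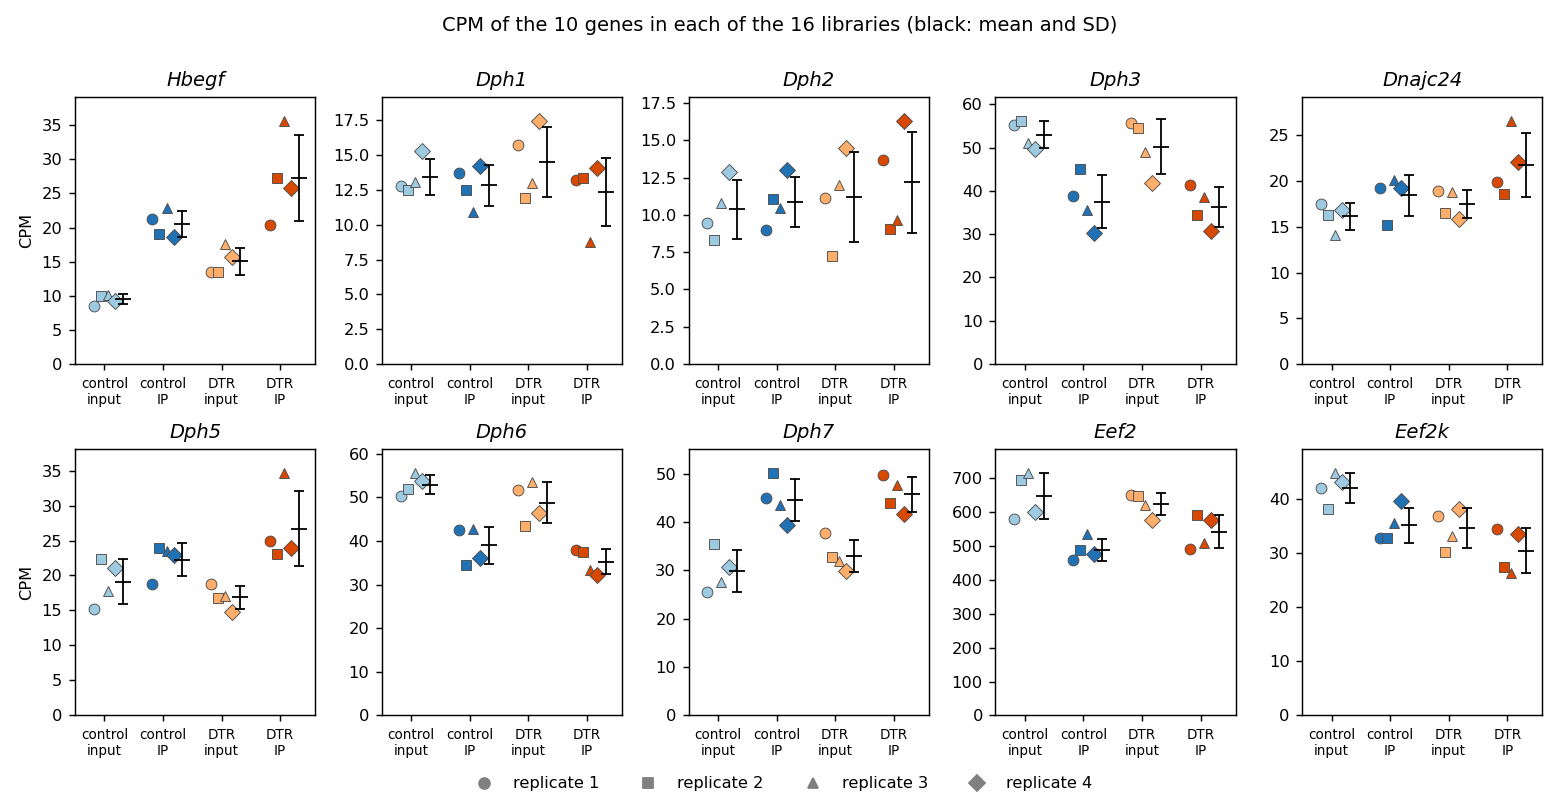
CPM of each gene in every library, with 1 panel per gene starting at 0, symbols marking replicates 1 to 4 and a black bar the mean and SD of 4 libraries. The 4 Hbegf values of control input (8.51 to 10.1) lie below all 12 others, while the groups of Dph1 and Dph2 overlap throughout.

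Enzymes of the first step of diphthamide synthesis did not move together. Dph1 and Dph2 form the enzyme that attaches the first group to the histidine, Dph3 carries electrons to it and Dnajc24 is a J-domain partner. Of these 4, Dph3 alone was called in any comparison. Dph3 (GRCm38 chr14:32080566-32085729, minus strand) was measured at 55.1, 56.1, 51.2 and 49.6 CPM in control input and at 38.8, 45.1, 35.7 and 30.4 CPM in control IP. In DTR input it was measured at 55.6, 54.6, 48.9 and 41.8 CPM, and in DTR IP at 41.3, 34.4, 38.6 and 30.6 CPM. Within each genotype, input and IP libraries did not overlap, and the IP was lower in 8 of 8 pools, at 0.613 to 0.805 of the input. The change was 0.70-fold in controls (95% CI 0.59 to 0.83, LFC -0.51, SE 0.12, limma adjusted p = 0.0017) and 0.71-fold in DTR (95% CI 0.60 to 0.84, LFC -0.49, SE 0.12, limma adjusted p = 0.0026). The strand setting of the counting is not given in the sources used here, and 8.91% of the Dph3 exon bases are shared with Oxnad1 on the opposite strand, which averaged 18.5 CPM. A pseudogene, Dph3b-ps, had at most 1 read in any library.

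Dph1 (GRCm38 chr11:75177643-75191241, minus strand) was measured at 12.5 to 15.3 CPM in control input, 10.9 to 14.2 in control IP, 11.9 to 17.4 in DTR input and 8.75 to 14.1 in DTR IP. No comparison was called, and the largest estimate was an LFC of -0.24 (95% CI -0.59 to 0.11) for DTR IP against DTR input, which was -0.09 without DTR IP replicate 3. Ovca2 lies on the same strand and shares 36.0% of the Dph1 exon bases. It averaged 10.3 CPM, so the split of reads between the pair is uncertain. Dph2 (GRCm38 chr4:117888643-117892032, minus strand) was measured at 8.33 to 12.9 CPM in control input, 8.97 to 13.01 in control IP, 7.26 to 14.5 in DTR input and 9.08 to 16.3 in DTR IP. It was the most variable of the 10 genes, with a coefficient of variation (CV) of 15.4% to 28.0% within groups where counting alone would give 4.94% to 5.28%. Its intervals for IP against input reached from -0.37 to 0.59 on the LFC scale in controls, so that a change of up to 1.51-fold could not have been told from none. Dnajc24 (GRCm38 chr2:105966709-106003549, minus strand) was measured at 14.1 to 17.5 CPM in control input, 15.2 to 20.2 in control IP, 15.8 to 18.9 in DTR input and 18.5 to 26.5 in DTR IP. The IP was above the input in 3 of 4 control pools and 4 of 4 DTR pools, but neither change passed the test (LFC 0.18 and 0.27, SE 0.15, adjusted p = 0.37 and 0.17).

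Of the later enzymes, Dph7 was higher and Dph6 lower in IP than in input. Dph7 (GRCm38 chr2:24962400-24972163, plus strand) was measured at 25.5, 35.5, 27.6 and 30.7 CPM in control input and at 45.0, 50.2, 43.6 and 39.5 CPM in control IP. DTR input libraries held 37.7, 32.8, 31.9 and 29.8 CPM and DTR IP libraries 49.7, 43.9, 47.8 and 41.7 CPM. Input and IP did not overlap in either genotype. The change was 1.47-fold in controls (95% CI 1.25 to 1.72, LFC 0.55, SE 0.11, limma adjusted p = 0.00052) and 1.34-fold in DTR (95% CI 1.15 to 1.57, LFC 0.43, SE 0.11, limma adjusted p = 0.0045), with the IP higher in 8 of 8 pools.

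Dph6 (GRCm38 chr2:114516416-114654964, minus strand) showed the opposite order. It was measured at 50.4, 52.0, 55.6 and 53.8 CPM in control input and at 42.6, 34.6, 42.8 and 36.1 CPM in control IP. The DTR input libraries held 51.7, 43.4, 53.5 and 46.4 CPM and those of DTR IP 37.9, 37.4, 33.3 and 32.3 CPM. Every IP library was below every input library of its genotype. The change was 0.73-fold in controls (95% CI 0.62 to 0.85, LFC -0.46, SE 0.11, limma adjusted p = 0.0021) and 0.71-fold in DTR (95% CI 0.60 to 0.83, LFC -0.50, SE 0.11, limma adjusted p = 0.0012).

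Dph5 (GRCm38 chr3:115887837-115934361, plus strand), the methyltransferase, was called in DTR pools. It was measured at 15.2, 22.3, 17.8 and 21.1 CPM in control input and at 18.7, 24.0, 23.5 and 22.9 CPM in control IP. In DTR input it was measured at 18.8, 16.8, 17.1 and 14.8 CPM, and in DTR IP at 24.9, 23.1, 34.7 and 23.9 CPM. Control groups overlapped and DTR groups did not, and the IP was above the input in 8 of 8 pools. The change in DTR was 1.52-fold (95% CI 1.21 to 1.90, LFC 0.60, SE 0.15, limma adjusted p = 0.0048), with an LFC of 0.46 (adjusted p = 0.021) without DTR IP replicate 3, which held the highest value. In controls it was 1.16-fold (95% CI 0.93 to 1.45, LFC 0.21, SE 0.15, adjusted p = 0.30), and with the replicate block and the length trend removed the LFC was 0.35 (adjusted p = 0.029). The difference between the genotypes, an LFC of 0.39 (SE 0.22, 95% CI -0.07 to 0.85), was the largest among the 10 genes and was not called (limma adjusted p = 0.999).

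**Figure D3:**
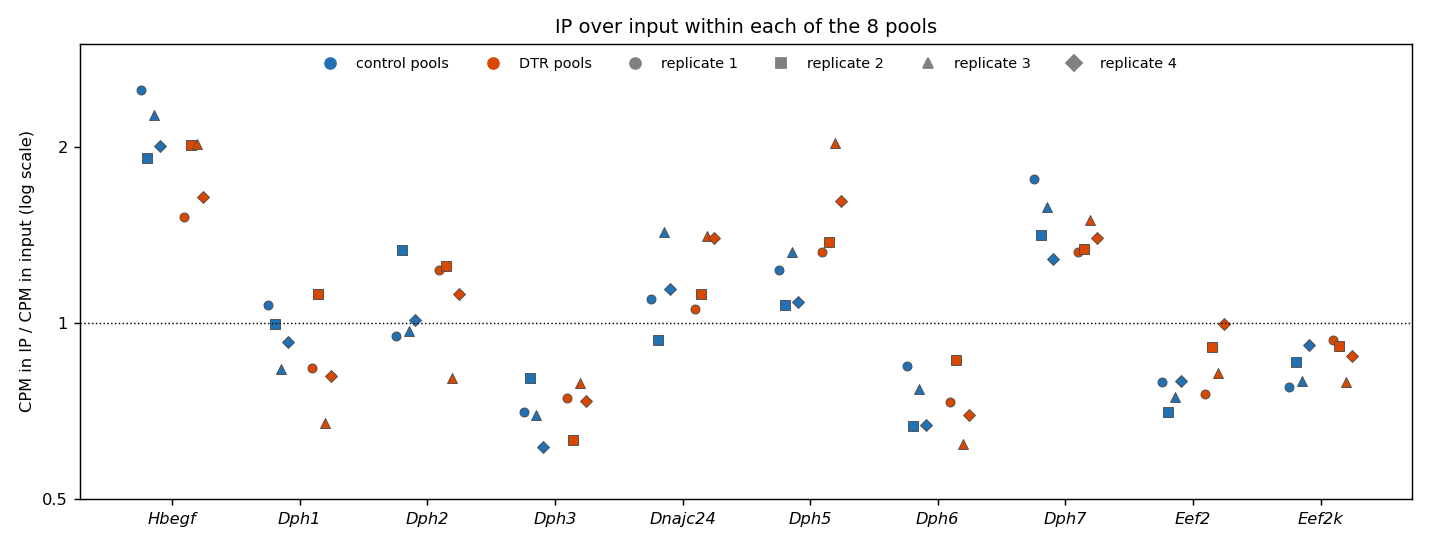
CPM in IP divided by CPM in input of the same pool, on a log axis, for 4 control (blue) and 4 DTR (orange) pools per gene, with symbols marking replicates and a dotted line at equal levels. All 8 pools lie above the line for Hbegf, Dph5 and Dph7 and all 8 below it for Dph3, Dph6, Eef2 and Eef2k.

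Eef2, the target of the toxin and the factor that moves the ribosome along the message, lies at GRCm38 chr10:81176631-81182498 on the plus strand. It was measured at 578, 695, 715 and 599 CPM in control input and at 458, 489, 534 and 476 CPM in control IP. In DTR input it was measured at 649, 648, 621 and 577 CPM, and in DTR IP at 491, 589.9, 509 and 575 CPM. The IP was below the input in 8 of 8 pools, but by unequal amounts, at 0.704 to 0.794 of the input in controls and 0.756 to 0.997 in DTR. These ratios are of deposited CPM, whereas the folds that follow are of quantile normalized CPM. In controls the normalized fold was nearer to 1 than any of the pool ratios. The change passed in controls (0.83-fold, 95% CI 0.72 to 0.96, LFC -0.27, SE 0.10, limma adjusted p = 0.040) and not in DTR (0.94-fold, 95% CI 0.82 to 1.09, LFC -0.08, SE 0.10, limma adjusted p = 0.56). The difference between these changes was not called (LFC 0.19, SE 0.14, 95% CI -0.11 to 0.49, limma adjusted p = 0.999).

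The call for Eef2 in controls was close to the threshold. It was lost without control input replicate 2 or 3 (LFC -0.24 and -0.23, limma adjusted p = 0.11 for both) and without control IP replicate 1 or 4 (LFC -0.24 and -0.23, limma adjusted p = 0.10 and 0.098), and also with no filter on low values (limma adjusted p = 0.074). After damage, Eef2 in IP was 1.16-fold higher (95% CI 1.00 to 1.35, LFC 0.22, SE 0.10), with an unadjusted p of 0.046 and a limma adjusted p of 0.17. In input its LFC was 0.03 (95% CI -0.18 to 0.24), with a sign that turned without quantile normalization (-0.0478). With the most reads of the 10 genes, 14549 to 29589 per library, its CV within groups was still 5.39% to 10.5%, where counting alone would give 0.627% to 0.786%.

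Eef2k, the calcium-dependent kinase of eEF2, lies at GRCm38 chr7:120842831-120907450 on the plus strand. It was measured at 42.1, 38.2, 44.8 and 43.2 CPM in control input and at 32.8, 32.7, 35.6 and 39.6 CPM in control IP. Its DTR input values were 36.9, 30.2, 33.1 and 38.2 CPM, and its DTR IP values 34.5, 27.5, 26.3 and 33.5 CPM. All 4 comparisons gave estimates below 0, and the groups overlapped in each. For control IP against control input the LFC was -0.27 (SE 0.12, 95% CI -0.53 to -0.01, limma adjusted p = 0.089), which passed once pools were blocked (adjusted p = 0.036) and without control IP replicate 4 (LFC -0.36, adjusted p = 0.026). With the length trend removed it was -0.14, with an adjusted p of 0.26 under the block. For DTR input against control input the LFC was -0.29 (SE 0.12, limma adjusted p = 0.15), and for DTR IP against control IP -0.24 (SE 0.12, limma adjusted p = 0.20).

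Start-site sequences are shown for the toxin's target, its kinase and Dph1, because all of them hold the same 6-letter element. RefSeq promoter windows (GRCm38.p6, mostly upstream of the start) were searched for 8 of the 10 genes. No window of Dph2 or Hbegf was included among them, so the presence of the motifs at either gene was not tested. The stretches below are printed 5′ to 3′ on the gene's strand, with capitals marking the motifs searched.
Eef2 (chr10:81176571-81176655, plus strand): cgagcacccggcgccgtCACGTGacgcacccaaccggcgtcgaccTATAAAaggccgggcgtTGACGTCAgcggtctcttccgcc
Eef2k (chr7:120842771-120842830, plus strand): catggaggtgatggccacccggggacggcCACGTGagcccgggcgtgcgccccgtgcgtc
Dph1 (chr11:75190459-75190533, minus strand): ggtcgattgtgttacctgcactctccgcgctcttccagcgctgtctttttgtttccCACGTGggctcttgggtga

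The 6-letter element CACGTG, the E-box, begins at position -43 in Eef2, -31 in Eef2k and 7 in Dph1, counted from 1 at the start site. Only windows that hold the element are printed. For Dph1 the start site of the printed window, 75190483, lies inside the gene bounds given above, whose 5′ end is 75191241. The E-box was found in the windows of 4 genes, these and Dph3. Counted by window, it was in 4 of the 11 windows of the 8 genes and in 7.15% of all 32851 windows. The CRE letters TGACGTCA were found in Eef2 (1 of the 11 windows, 1.79% of all windows). TATAAA was found in Eef2, Dph3 and Dnajc24 (3 of the 11 windows, 13.6% of all). Each motif was searched on either strand, with no shared bases between the motifs printed. The AP-1 letters TGACTCA were in none of the 8 genes' windows (5.20% of all windows). The motifs were chosen after the sequences had been read, a match is no evidence of binding, and no reading of these libraries bears on the promoters.

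Counted over the 10 genes, IP against input moved them in both directions. In controls 5 were called by limma at an adjusted p under 0.05, of which 2 were higher (Hbegf and Dph7, against 19.3% of all tested genes called higher) and 3 lower (Dph3, Dph6 and Eef2, against 20.7%). In DTR pools 5 were called, of which 3 were higher (Hbegf, Dph5 and Dph7, against 18.6%) and 2 lower (Dph3 and Dph6, against 20.5%). In controls, IP lay wholly above input for 2 of the 10 and wholly below for 3, against 17.19% and 21.55% of all tested genes. In DTR it lay wholly above for 3 and wholly below for 2, against 16.66% and 16.18%. The median LFC of the 10 genes was 0.04 in controls and 0.02 in DTR, and that of all tested genes was -0.0012 and -0.03. With the criteria the study set for DTR IP against control IP (an absolute LFC of at least 1 and a separation above 1.5 besides the adjusted p) applied here too, 1 gene, Hbegf, remained in controls, against 7.68% of all genes, and 0 in DTR, against 5.77%. For enrichment in IP over input the study asked for an LFC of at least 2, which Hbegf at 1.08 did not reach. The paper also gauges origin in the immunoprecipitated cells by an enrichment factor above 2, without saying whether that factor is a log2 value. The Hbegf fold was 2.12 in controls and 1.73 in DTR. Separation is the lowest value of the higher group over the highest value of the lower group.

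DTR was then compared with control within IP and within input. In DTR IP against control IP, 0 of the 10 were called by limma, against 8.44% of all genes called higher and 7.3% lower. At an unadjusted p under 0.05 there was 1, Eef2, and edgeR and DESeq2 called 0. The LFC ranged from -0.24 (Eef2k) to 0.34 (Hbegf), and within the 7 diphthamide genes from -0.18 (Dph6) to 0.21 (Dph5), with a median of 0.0042. In DTR input against control input 1 was called, Hbegf, against 7.17% of all genes called higher and 5.21% lower, and the diphthamide genes lay between -0.18 (Dph5) and 0.13 (Dph7). DTR input lay wholly above control input for 1 of the 10, Hbegf, against 11.56% of all tested genes. Under the same criteria of LFC and separation 0 of the 10 remained in either comparison, against 2.47% of all genes in IP and 2.34% in input. In the interaction, which asks whether IP and input changed unequally after damage, limma called 0 of the 10, against 0.0118% of all genes, and 0 passed an unadjusted p of 0.05 or a call by edgeR or DESeq2. The comparisons of IP with input and of DTR with control share libraries, so their values are not independent of each other.

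**Figure D4:**
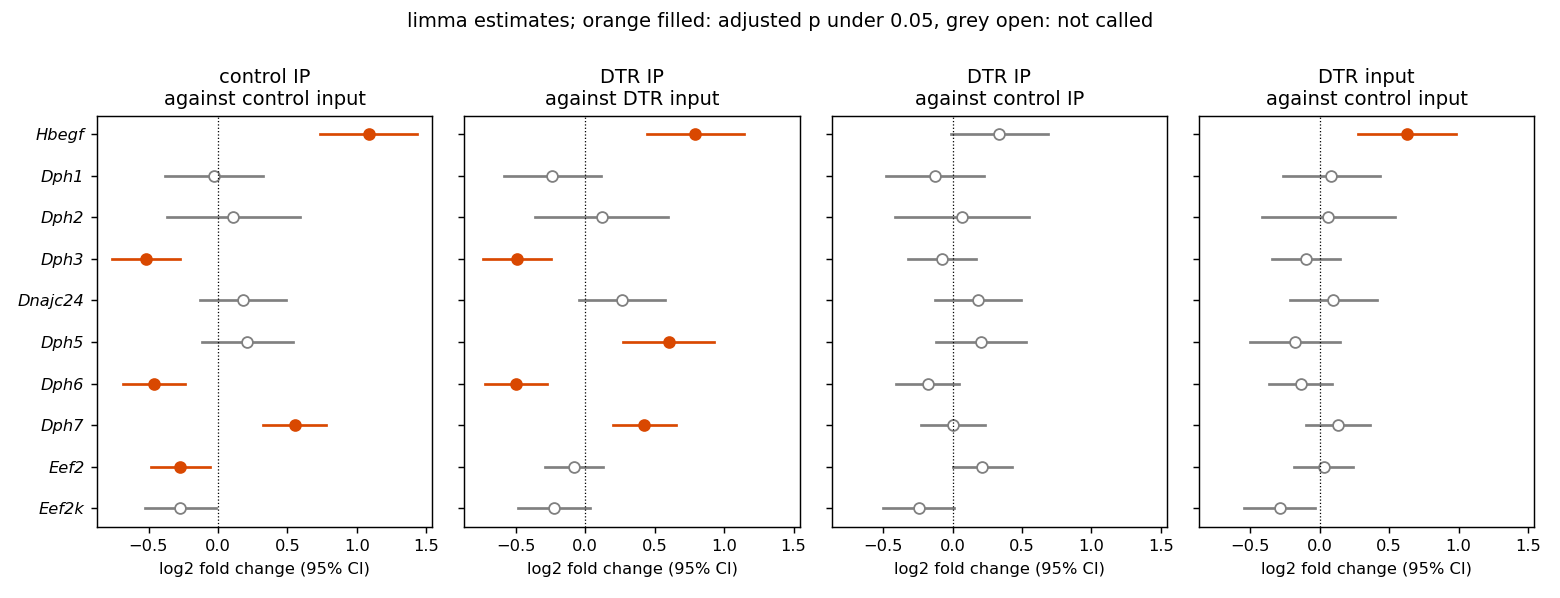
limma LFC and 95% CI of the 10 genes in 4 comparisons, orange and filled where the adjusted p was under 0.05 and grey and open where it was not. Hbegf lies highest in IP against input (1.08 in controls, 0.79 in DTR), and it is the single orange point in the panels comparing DTR with control.

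Genes that carry DT from the surface to the cytosol were next compared between IP and input. Of 12 such genes, 1 was called higher and 6 lower in controls (median LFC -0.46), where 19.3% of all tested genes were called higher and 20.7% lower. In DTR 1 was higher and 7 lower (median LFC -0.50), against 18.6% and 20.5% of all genes. The largest changes in controls were in subunits of the COPI coat, which takes part in translocation of the toxin from endosomes: Copa (LFC -1.03, adjusted p = 7.8e-05), Copb1 (-0.83, adjusted p = 5.8e-05) and Copg1 (-0.80, adjusted p = 0.00039). The gene called higher, Cope, also encodes a COPI subunit (LFC 0.45, adjusted p = 0.0053), and Copz1, another, was not called (LFC 0.18). Most of the 12 genes encode COPI subunits. Values of list genes here and below come from the fit without the length trend removed. The study corrected for a gene length effect in IP samples before its clustering. After damage 1 of the 12 was called in IP, Cd9, a membrane protein that associates with HB-EGF and raises toxin binding, at an LFC of -0.44 (SE 0.12, adjusted p = 0.019), opposite in sign to the estimate for Hbegf.

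A list of 12 genes held the proteases that release HB-EGF, its receptors and its partners at the surface. In DTR IP against control IP, 0 of 12 were called higher and 3 lower, none of them a protease, against 8.44% and 7.3% of all genes (median LFC -0.28, against -0.0043 over all genes). They were Cd44, which can present HB-EGF at the surface (LFC -0.60, SE 0.10, adjusted p = 0.00036), Egfr, the main receptor of HB-EGF (LFC -0.54, SE 0.10, adjusted p = 0.0012), and Cd9. In input 4 of 12 were called lower and 0 higher, against 5.21% and 7.17% of all genes (median LFC -0.30). They were Cd44, Egfr, Cd9 and the protease gene Adam17 (LFC -0.34, SE 0.10, limma adjusted p = 0.041). In control IP against control input 0 of 12 were called higher and 3 lower, against 19.3% and 20.7% of all genes, so the lower calls were near that share. These were Nrdc, an activator of shedding (LFC -0.76, adjusted p = 4e-05), Erbb2 (-0.74, adjusted p = 0.0018) and Adam10 (-0.54, adjusted p = 0.022). Beside the lower Egfr, Cd44 and Cd9, 5 of 9 markers of supporting and greater epithelial ridge cells were called lower in DTR IP than in control IP while 3 of 5 mesenchyme, 4 of 6 macrophage and 2 of 4 endothelial markers were called higher, and their part in these values was not tested.

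Among other ligands of the family, 3 of 6 passed the filter. Btc (betacellulin) was higher in control IP than in control input, at 8.18 ± 2.52 against 4.12 ± 0.620 CPM (SD, n = 4, LFC 0.93, SE 0.19, limma adjusted p = 0.00058). Tgfa was lower in DTR IP than in control IP, at 31.4 ± 5.52 against 41.4 ± 8.33 CPM (SD, n = 4, LFC -0.43, SE 0.14, limma adjusted p = 0.041). Egf was not called in any comparison.

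The remaining lists held regulators of Eef2k, the other elongation factors and the Elongator complex, to which Dph3 also supplies electrons. Of 11 Eef2k regulators (median LFC 0.12), 1 was called in DTR IP against control IP, the kinase gene Rps6ka1 (LFC -0.58, SE 0.14, adjusted p = 0.0083), where 8.44% of all genes were called higher and 7.3% lower. Of 9 elongation factors and 11 Elongator and related genes (median LFC -0.0071 and 0.03), 0 were called there by limma and 0 had an unadjusted p under 0.05. In control IP against control input 2 of 11 Eef2k regulators were higher and 3 lower, close to the 19.3% and 20.7% of all genes, with Mtor at an LFC of -0.99 (adjusted p = 0.00011) and the AMPK subunit gene Prkaa2 at 0.73 (adjusted p = 0.0017). Like Eef2, Eef1a1 was lower there (LFC -0.55, SE 0.12, adjusted p = 0.0015), although reads of its processed pseudogenes may be shared, and Eef1a2, a form used by neurons and muscle, was lower by a poorly fixed amount (LFC -1.87, SE 0.69, adjusted p = 0.037). Of the 11 Elongator and related genes 3 were lower and 1 higher, likewise near the share of all genes, with Elp3 at -0.56 (adjusted p = 0.0019) and Ctu2 at 0.59 (adjusted p = 0.0031).

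Across the 16 libraries, Hbegf, Dph5 and Dph7 tended to vary opposite to Dph3 and Dph6. Pearson's r of log2 values was 0.79 between Hbegf and Dph7, 0.77 between Dph3 and Dph6 and 0.76 between Dph5 and Dph7, while it was -0.83 between Hbegf and Dph3 and -0.82 between Dph6 and Dph7. Some other pairs were near 0, such as Dph2 and Dph7 (0.03). These values are given as a description, since the libraries share pools and the same split of IP from input runs through all of them. Of all tested genes, those closest to Hbegf were 0610040J01Rik (r = 0.97), Cdkn1a (0.97) and Tmem173 (0.96). Cdkn1a, a cell cycle inhibitor, had a mean of 206 CPM in control and 289.5 in DTR input, and of 323 in control and 389 in DTR IP. Those closest to Eef2k were Smpd1 (r = 0.93), Mrgpre (0.93) and Tyw1 (0.92), and those closest to Eef2 were Eif4b (0.84), Synpo2l (0.83) and Nrde2 (0.83).

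The CV over the 4 libraries of a group ran from 4.26% (Dph6) to 28.0% (Dph2). For Hbegf in control input it was 7.68%, where counting alone would give 5.19%. Intervals based on reads cover counting error only, since reads of amplified libraries are not independent molecules.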

How the data were processed

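SMART-Seq v4 libraries were made from input and IP RNA. Reads were aligned by the authors to GRCm38 (HISAT2 in the methods, TopHat in the submitters' processing notes), counted with HTSeq and deposited as CPM. The annotation release and strand setting are not given in the sources used here. Each column sums to 1000000 and 100% of values above 0 came out as whole reads (within 0.05 read), so counts were recovered for edgeR and DESeq2. Of 50316 listed genes, 2587 are NA throughout.

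CPM were quantile normalized, and log2 values (pseudocount 0.5) were kept for 16994 genes (0.5 CPM or more throughout the 4 replicates of any group) and fitted over 16 libraries with limma (version 3.58.1, R 4.3.3, mean-variance trend), with Benjamini-Hochberg adjustment over all of them. Every adjusted p in the report comes from limma unless edgeR or DESeq2 is named. Separation used a floor of 1.08 CPM, the 10th percentile. CPM given as levels, and ratios of IP to input within a pool, are as deposited. Exon lengths and overlaps came from GENCODE M21. Each library's trend with gene length was removed by lowess in an alternative. The procedure was tested on simulated data.

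Groups came from the sample labels. IP and input of a replicate number come from 1 homogenate. Deviations from group means of same-numbered libraries correlated at 0.288 to 0.560 in the 4 comparisons. For different numbers the highest value was 0.290, in control IP against control input, just above the lowest same-numbered value there. For control and DTR the pairing by number rests on these correlations alone. The main fit used group means only and ignored the pairing, which entered as the replicate block among the alternatives. Replicate 4 of each group is numbered 6 in the files. Whether pools were litters or batches is not stated.

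The named genes were the 10 members, Lgr5, Slc1a3, Rpl22 and Mki67 as checks (Rpl22 was at 44.3 ± 3.82 CPM in control IP and 49.2 ± 5.19 in DTR IP, and Mki67 at 12.1 ± 3.66 and 32.1 ± 4.96), 3 genes nearest to Hbegf, Eef2 and Eef2k over 16 libraries, and from each of 6 pathway lists the 3 called genes with the largest LFC in DTR IP against control IP and in control IP against control input. Some genes that the rule covers are not reported here. Other genes named were chosen after their values were seen. Members and lists were chosen with earlier results of these data known. Marker lists not named in the report had the following calls in DTR IP against control IP: hair cells 2 of 6 higher and 1 lower, Schwann cells 2 of 4 lower, neurons 0 of 4 and red blood cells 0 of 3 tested. Of all tested genes, 8.44% were called higher there and 7.3% lower.

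Alternatives were CPM without quantile normalization or centred on the median, pseudocounts of 0.1 and 1, no filter, at least 2 CPM, the compared groups alone, the replicate block, the length trend removed, both, edgeR (version 4.0.16), DESeq2 (version 1.42.0), the study's criteria for DTR IP against control IP and each library left out. Figures were drawn with matplotlib.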

Additional observations from a re-analysis of the deposited data

Results flagged for a closer look

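In DTR IP, Dph1 was lowest in replicate 3, at 8.75 CPM, apart from the other 3 libraries at 13.2 to 14.1 CPM. In the same group Dph5 was highest in replicate 3, at 34.7 CPM, apart from 23.1 to 24.9 CPM in the others. Each gap, 0.832 and 0.844 of the group's whole range, was over Dixon's critical value for 4 samples, as in 2 of the 40 combinations of gene and group, and chance flags about 1 in 20. Both lie in the library with the fewest genes detected (23975). Its part in these values was not tested.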

How the results depend on the processing

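No alternative run turned the direction of a called gene. Adding the study's criteria for DTR IP against control IP (absolute LFC of at least 1, separation above 1.5) left 1 of the 5 genes called in control IP against control input, 0 of the 5 in DTR IP against DTR input and 0 of the 1 in DTR input against control input, by construction of the larger LFC required. With the replicate block and the length trend removed, 1 gene (Hbegf, LFC 0.36) was called in DTR IP against control IP instead of 0, and Dph5 in control IP against control input passed (0.35). The replicate block alone added Eef2k (-0.27) there and changed no other call. The cause of these changes was not tested. With each library left out in turn, genes called numbered 4 to 5 in control IP against control input, 5 in DTR IP against DTR input, 0 in DTR IP against control IP, 0 to 1 in DTR input against control input (LFC of Hbegf 0.53 to 0.71) and 0 in the interaction. Estimates near 0 changed sign. In the interaction these were Dph2 (edgeR -0.0187) and Dph3 (edgeR -0.0344, DESeq2 -0.00751), in DTR IP against control IP Dph7 (median-centred CPM -0.00288, edgeR -0.0333, DESeq2 -0.0315), and in DTR input against control input Eef2 (CPM without quantile normalization -0.0478, median-centred -0.0610, edgeR -0.0614, DESeq2 -0.0845). With a library left out, the LFC of Dph1 ranged from -0.117 to 0.0412 in control IP against input, -0.206 to 0.0172 in DTR IP against control IP and -0.00371 to 0.167 in DTR input against control input. That of Dph2 ranged from -0.0150 to 0.228, -0.0685 to 0.253, -0.0896 to 0.194 and -0.0724 to 0.249 in the order of the 4 comparisons and from -0.181 to 0.140 in the interaction. In the interaction, ranges were -0.0705 to 0.0886 for Dph3, -0.0283 to 0.150 for Dnajc24, -0.122 to 0.0189 for Dph6 and -0.0175 to 0.135 for Eef2k. Dph7 ranged from -0.0224 to 0.0373 in DTR IP against control IP, and Eef2 from -0.0216 to 0.0746 in DTR input against control input. With 4 libraries a group, the SE of an LFC was 0.10 to 0.23 over the 10 genes in the 4 comparisons, which limits the smallest change that could be called.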
